A study of Mus musculus with 20 samples.

Results

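The 10 genes described here encode hormones and peptides of the enteroendocrine cells of the gut, and they were followed on 20 microarrays of mouse intestinal tissue. They were chosen by name, as every probe on the Agilent array whose gene name equalled Gcg, Cck, Sct, Gip, Sst, Nts, Pyy, Ghrl, Tac1 or Tph1. This gave 19 of 56605 probes and 10 of 25031 genes. Cre control mice (n = 6) had the genotype VillinCreER/0, and BRAFV600E mice (n = 6) had the genotype VillinCreER/0/BrafV600E-LSL/+, which adds 1 Braf allele that gives BRAFV600E once Cre has acted. These mice were 8 to 12 weeks old, all 12 received 3 tamoxifen injections, and tissue was taken 3 days after the last. In a separate experiment, mice given 2 tamoxifen injections went on to 3 injections of PD184352, an inhibitor of the kinase MEK (MEKi, n = 4), or of its solvent (Vehicle, n = 4). No genotype is labelled for this second experiment, and the study's legends describe its mice as expressing BRAFV600E. All mice were labelled C57BL6/j and the tissue was labelled only as intestinal, with no region of the gut. Villin drives Cre in the gut epithelium, so nerve, muscle and immune cells in the same sample kept the silent allele. Each array held RNA from 1 mouse, and the number of mice limits the precision of every value.

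Enteroendocrine cells are scattered hormone-secreting cells of the gut epithelium. They arise from crypt progenitors through the transcription factor NEUROG3, sense nutrients at their apical face and release peptides from dense-core granules into blood or onto nearby nerves and cells. Which hormone a cell makes changes with its place along the gut: gastric inhibitory polypeptide, cholecystokinin and secretin are made mostly in the upper small intestine, whereas neurotensin, proglucagon and peptide YY are made mostly further down. BRAF lies above MEK and ERK in the MAPK pathway, and BRAFV600E keeps that pathway active.

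The promoters of 6 of the genes are shown, picked by the expression results of these genes. Gcg, Gip and Sst were lower in BRAFV600E, Pyy and Tac1 were higher, and Nts had the largest fitted difference. Each sequence is the 250 bases upstream of the start of transcription in RefSeq on build GRCm38.p6, written 5′ to 3′ on the strand of the gene. Capitals mark matches on either strand to CANNTG (the E-box read by factors such as NEUROD1), TGANTCA (the AP-1 site, read by FOS and JUN proteins) or TGACGTCA (the CRE, read by CREB).
Gcg, chr2:62483654-62483903, minus strand: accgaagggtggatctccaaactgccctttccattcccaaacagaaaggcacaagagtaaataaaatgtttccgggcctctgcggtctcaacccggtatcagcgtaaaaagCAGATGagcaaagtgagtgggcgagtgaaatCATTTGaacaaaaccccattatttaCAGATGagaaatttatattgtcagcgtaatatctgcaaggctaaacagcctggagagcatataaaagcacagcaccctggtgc
Gip, chr11:96024295-96024544, plus strand: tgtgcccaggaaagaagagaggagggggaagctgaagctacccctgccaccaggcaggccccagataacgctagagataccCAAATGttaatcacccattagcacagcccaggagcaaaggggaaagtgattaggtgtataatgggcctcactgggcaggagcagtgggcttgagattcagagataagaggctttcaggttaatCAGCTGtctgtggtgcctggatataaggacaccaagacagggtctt
Sst, chr16:23890845-23891094, minus strand: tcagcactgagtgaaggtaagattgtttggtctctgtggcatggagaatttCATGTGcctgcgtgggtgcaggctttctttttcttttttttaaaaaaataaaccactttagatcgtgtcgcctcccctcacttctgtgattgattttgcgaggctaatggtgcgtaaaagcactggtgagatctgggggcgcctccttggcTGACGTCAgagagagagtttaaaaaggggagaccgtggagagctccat
Nts, chr10:102490419-102490668, minus strand: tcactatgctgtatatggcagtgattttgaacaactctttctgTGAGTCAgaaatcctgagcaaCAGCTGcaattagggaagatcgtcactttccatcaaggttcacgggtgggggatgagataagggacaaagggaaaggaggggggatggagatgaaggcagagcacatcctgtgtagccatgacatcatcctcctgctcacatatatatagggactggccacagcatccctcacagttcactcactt
Pyy, chr11:102107833-102108082, minus strand, the more upstream of 2 starts: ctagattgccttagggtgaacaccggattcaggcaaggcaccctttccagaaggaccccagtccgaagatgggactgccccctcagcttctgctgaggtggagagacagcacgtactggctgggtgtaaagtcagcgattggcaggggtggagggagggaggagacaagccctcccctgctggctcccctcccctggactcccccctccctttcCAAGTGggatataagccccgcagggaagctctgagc
Tac1, chr6:7554811-7555060, plus strand: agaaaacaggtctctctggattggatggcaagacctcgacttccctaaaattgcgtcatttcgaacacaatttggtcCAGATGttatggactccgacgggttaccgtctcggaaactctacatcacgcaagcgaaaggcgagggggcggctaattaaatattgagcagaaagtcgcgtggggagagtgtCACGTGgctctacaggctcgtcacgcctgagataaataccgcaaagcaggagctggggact

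All 10 genes had at least 1 promoter in the RefSeq table, with 15 promoters among them. An E-box stood in 11 of these 15 promoters (73.3%), against 66.2% of all 32817 promoters of this length. The AP-1 letters, taken here with any middle base, were in 2 of the 15, against 6.75% of all promoters. They read TGAGTCA 207 bases upstream of the start of Nts and TGATTCA 68 bases upstream of one start of Ghrl. The CRE letters were in 1 of the 15, that of Sst, 48 bases upstream of its start, against 1.55% of all promoters. These matches describe the letters only, and binding was not measured.

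A level below is the log2 of the background-subtracted intensity of a probe minus the log2 of the 75th percentile of its array, so that a level of 0 sits at that percentile and a step of 1 is a 2-fold step. Where a gene had several probes, the one with the highest mean over the 20 arrays stands for it, and levels are compared between arrays and never between genes. Between 60.8% and 76.8% of the spots of an array were well above background, and no spot was saturated. All Cre control arrays and BRAFV600E replicates 1 and 2 shared slide 1, BRAFV600E replicates 3 to 6 were on slide 2, and the MEKi and Vehicle arrays were on slide 3 in different rows, so that row and group cannot be told apart there. Y-linked genes were high on 3 of 6 Cre control, 4 of 6 BRAFV600E, 4 of 4 MEKi and 2 of 4 Vehicle arrays. As a check of the labels, 10 genes driven by MAPK signalling were tested, with calls made at a limma adjusted p under 0.05. Of these, 9 were called higher in BRAFV600E than in Cre control (median log2 difference 0.93) and 6 were called lower in MEKi than in Vehicle (median -1.65). The fitted difference was above 0 for 10 of 10 in BRAFV600E and below 0 for 10 of 10 in MEKi.

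Before the hormones, 4 arrays need to be set apart, because they differed from the other 16 in some genes that mark position along the gut (genes picked after their values were seen). Pdx1, a transcription factor of the pancreas and duodenum, had levels of 0.78, 3.10 and 1.06 on BRAFV600E replicates 1, 2 and 5 and of 3.72 on Vehicle replicate 2, and of -4.51 to -1.18 on the other 16 arrays. Cybrd1, the iron reductase of the duodenal brush border, was at -0.31, 6.48, -1.43 and 6.29 on the same 4 arrays and at -2.99 to -1.67 elsewhere. Osr2, taken here as a distal marker, was at -0.83, -7.18 (not well above background), -0.37 and -4.98 on them and at 0.86 to 3.51 elsewhere. Other position markers did not all follow. The mean of 8 proximal markers was 3.94, 4.01 and 4.25 on BRAFV600E replicates 1, 2 and 5, beside 3.91, 3.98 and 4.05 on replicates 3, 4 and 6. It was 5.64 on Vehicle replicate 2. Among them Slc40a1 was highest on the 4 arrays, but Lct was lowest there (5.49, -2.23, 6.04 and 3.70). The distal marker Fabp6 was at -3.26 and -3.30 on BRAFV600E replicates 1 and 2, within the Cre control range. Vehicle replicate 2 also had strong signal of pancreatic genes, with the acinar enzyme gene Cpa1 at 8.35 and the insulin genes Ins1 and Ins2 at 0.89 and 1.00. For several genes, results below are therefore also given without these arrays.

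BRAFV600E against Cre control asked what 3 days of the mutant kinase did to the gut epithelium. A gene was called where limma gave an adjusted p under 0.05 over all 19037 genes tested, and 12.5% of those genes were called. Of the 10 hormone and peptide genes, all of which passed the filter on dim probes, 3 were called lower (Gcg, Gip and Sst), 2 were called higher (Pyy and Tac1) and 5 were not called. Over all genes 6.27% were called lower and 6.19% higher. The same 5 genes had groups that did not overlap, as 7.36% of all genes did, and 7 of the 10 had an unadjusted p under 0.05, beside 30.1% of all genes. Without scaling between arrays the median of all genes moved to 0.79, and 1 of the 10 genes was then called lower and 3 higher. The fitted log2 differences ran from -3.32 (Nts) to 1.99 (Pyy) with a median of -0.13, beside -0.02 over all genes tested. In this bulk tissue, fewer cells of a type and less RNA per cell cannot be told apart.

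**Figure D1:**
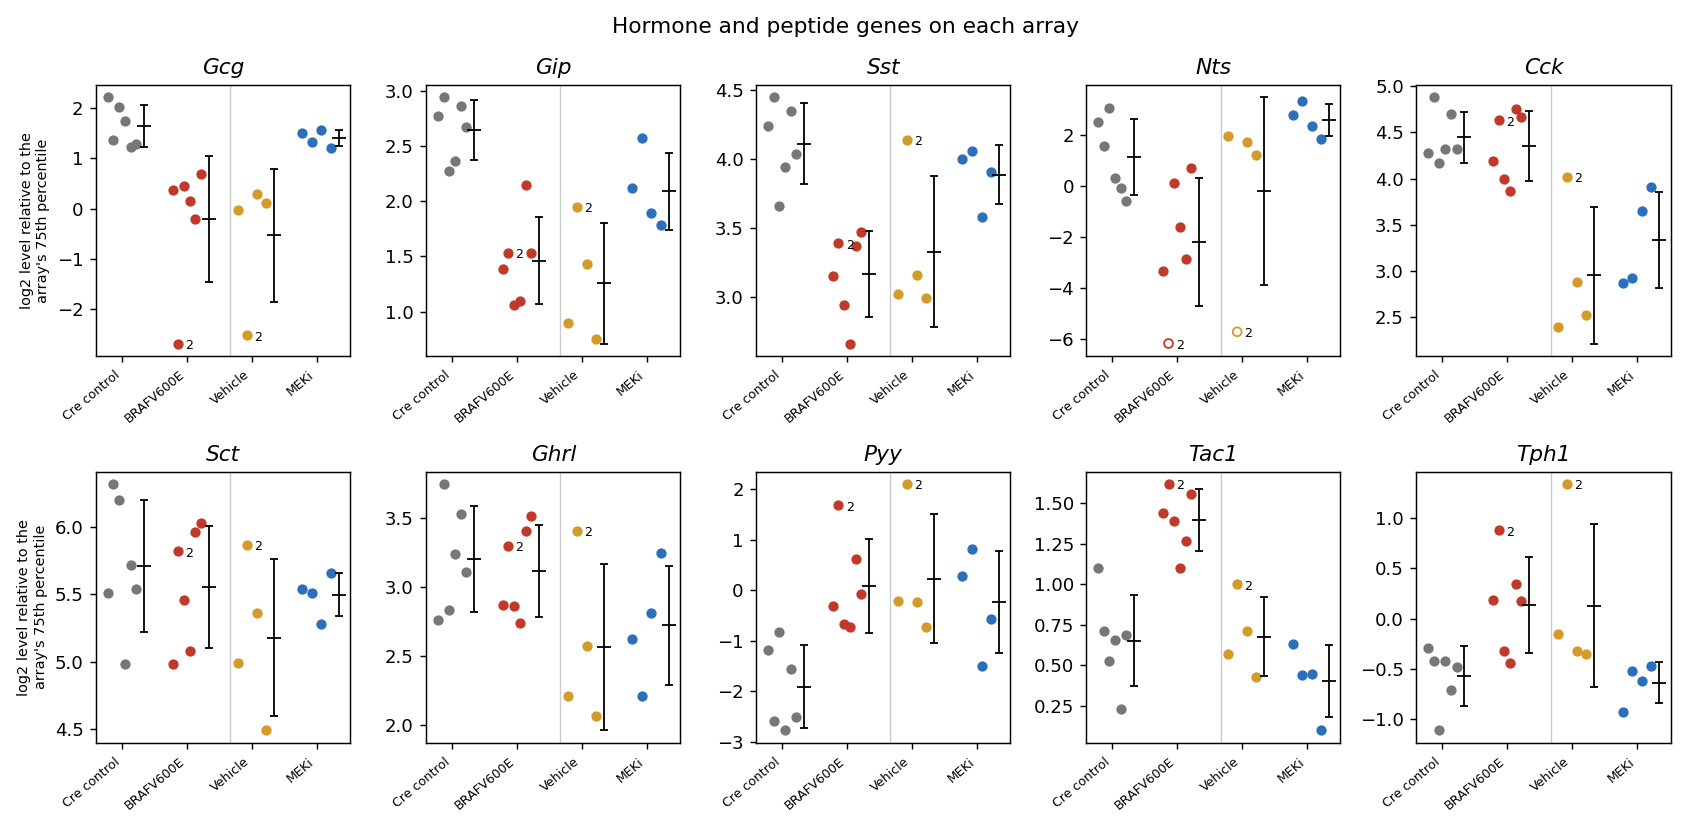
Levels of the 10 hormone and peptide genes on each of the 20 arrays. The vertical axis is the log2 level relative to the 75th percentile of the array, each point is 1 array, open points were not well above background, the black bar beside a group is its mean ± SD, and the digit marks replicate 2 of BRAFV600E and of Vehicle. Gcg, Gip and Sst sit lower in BRAFV600E than in Cre control with no overlap, Pyy and Tac1 sit higher, and Nts drops to -6.18 and -5.72 on the marked replicates.

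Gcg, Gip and Sst were the genes that fell. Gcg encodes proglucagon, which L cells cut into GLP-1 and GLP-2. The lowest, median and highest Gcg levels were 1.22, 1.55 and 2.21 in Cre control and -2.68, 0.26 and 0.68 in BRAFV600E, so every BRAFV600E array lay below every Cre control array. The mean fell from 1.63 ± 0.41 (SD, n = 6) to -0.21 ± 1.25 (SD, n = 6). The log2 difference was -1.84 (SE 0.48, 95% interval -2.89 to -0.79, limma adjusted p = 0.0282), which is 3.59-fold lower, and the exact two-sided permutation p over the arrays was 0.00216. BRAFV600E replicate 2 held the lowest value, and without it the difference was -1.35 (limma adjusted p = 0.00428). Without BRAFV600E replicates 1, 2 and 5, which leaves BRAFV600E arrays of slide 2 only, it was -1.21 (limma adjusted p = 0.031). A second, dimmer Gcg probe, well above background on 6 of 6 arrays of each group, differed by only -0.08 (limma adjusted p = 0.852). With the mean of the probes Gcg was not called (limma adjusted p = 0.051).

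Gip encodes gastric inhibitory polypeptide, the incretin of K cells. Its lowest, median and highest levels were 2.27, 2.72 and 2.94 in Cre control and 1.06, 1.46 and 2.15 in BRAFV600E. The highest BRAFV600E array thus stayed below the lowest Cre control array. Gip fell from 2.64 ± 0.27 to 1.46 ± 0.39 (SD, n = 6 each), a log2 difference of -1.18 (SE 0.20, limma adjusted p = 0.00305) or 2.27-fold. Without the 3 arrays with Pdx1 signal the difference was -1.41 (limma adjusted p = 0.00747). That fit leaves BRAFV600E arrays of slide 2 only, so slide and group cannot be told apart in it.

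Sst encodes somatostatin, which D cells release to restrain the secretion of the other hormones. Its levels were 3.66, 4.14 and 4.45 (lowest, median and highest) in Cre control and 2.66, 3.26 and 3.47 in BRAFV600E, again without overlap. Sst fell from 4.11 ± 0.29 to 3.16 ± 0.31 (SD, n = 6 each), a log2 difference of -0.95 (SE 0.18, limma adjusted p = 0.00645) or 1.93-fold. Without BRAFV600E replicates 1, 2 and 5 it was -1.09 (limma adjusted p = 0.0325). Over all genes tested, 3.17% had every BRAFV600E array below every Cre control array.

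Pyy and Tac1 were the genes that rose. Pyy encodes peptide YY, which slows gut transit and curbs appetite. Its lowest, median and highest levels were -2.77, -2.03 and -0.83 in Cre control and -0.73, -0.20 and 1.68 in BRAFV600E, so the groups did not overlap but their closest arrays were near each other. The mean rose from -1.91 ± 0.82 to 0.08 ± 0.92 (SD, n = 6 each), a log2 difference of 1.99 (SE 0.46, 95% interval 1.00 to 2.98, limma adjusted p = 0.0164) or 3.96-fold. Without BRAFV600E replicate 2 the difference was 1.67 (limma adjusted p = 0.0239), and without replicates 1, 2 and 5 it was 1.41 and no longer called (limma adjusted p = 0.102).

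Tac1 encodes the tachykinins substance P and neurokinin A, which enterochromaffin cells and enteric neurons both make. Its levels were 0.23, 0.68 and 1.1 (lowest, median and highest) in Cre control and 1.1, 1.42 and 1.62 in BRAFV600E, where the 2 closest arrays differed only beyond the second decimal. Tac1 rose from 0.65 ± 0.28 to 1.40 ± 0.19 (SD, n = 6 each), a log2 difference of 0.74 (SE 0.15, limma adjusted p = 0.00949) or 1.67-fold. Without BRAFV600E replicates 1, 2 and 5 it was 0.70 and not called (limma adjusted p = 0.0759). A second Tac1 probe gave 1.37 (limma adjusted p = 0.00236). Over all genes 4.19% had every BRAFV600E array above every Cre control array.

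Nts and Tph1 missed the threshold, although 4 of 6 BRAFV600E arrays lay outside the Cre control range for each. Nts encodes neurotensin, a peptide of N cells released in response to fat. Its lowest, median and highest levels were -0.59, 0.94 and 3.06 in Cre control and -6.18, -2.24 and 0.69 in BRAFV600E, where replicate 2 was not well above background and 4 arrays lay below all Cre control arrays. The log2 difference of -3.32 was the largest of the 10 genes and also had the widest error (SE 1.06, 95% interval -5.62 to -1.02, limma adjusted p = 0.0578). Without BRAFV600E replicates 1, 2 and 5 it was -1.40 (limma adjusted p = 0.34).

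Tph1 encodes tryptophan hydroxylase, the rate-limiting enzyme of serotonin synthesis in enterochromaffin cells. Its levels were -1.11, -0.45 and -0.29 (lowest, median and highest) in Cre control and -0.44, 0.19 and 0.88 in BRAFV600E, with 4 of 6 BRAFV600E arrays above all Cre control arrays. The log2 difference was 0.71 (SE 0.22, limma adjusted p = 0.0538), and the exact two-sided permutation p was 0.0152 before any adjustment. A second Tph1 probe passed the threshold, at 1.42 (limma adjusted p = 0.0126). Without BRAFV600E replicates 1, 2 and 5 the difference of the first probe was 0.38 (95% interval -0.11 to 0.87, limma adjusted p = 0.31).

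Cck, Sct and Ghrl were not called, and their intervals bound the change that these arrays allow. Cck encodes cholecystokinin, which empties the gallbladder, and its levels were 4.17, 4.32 and 4.88 (lowest, median and highest) in Cre control and 3.87, 4.41 and 4.75 in BRAFV600E. Its log2 difference was -0.09, with a 95% interval of -0.51 to 0.32. Sct encodes secretin, which draws bicarbonate from the pancreas, and differed by -0.16 (95% interval -0.72 to 0.40). Ghrl encodes ghrelin, the appetite hormone made mainly in the stomach, and differed by -0.09 (95% interval -0.53 to 0.36). As ratios of BRAFV600E over Cre control, these intervals run from 0.702 to 1.25 for Cck, from 0.609 to 1.32 for Sct and from 0.691 to 1.28 for Ghrl.

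The slide entered these results differently for each gene. Within slide 1, where BRAFV600E had replicates 1 and 2 only, the log2 differences were -2.79 for Gcg, -1.19 for Gip, -0.84 for Sst, -5.88 for Nts, 2.58 for Pyy, 0.88 for Tac1 and 1.11 for Tph1. Of these, Gip (limma adjusted p = 0.0295) and Nts (limma adjusted p = 0.0279) passed the threshold on those 8 arrays. With slide as a block over all 12 arrays, Gcg, Gip, Pyy and Tac1 were called as before. Nts (limma adjusted p = 0.0113) and Tph1 (limma adjusted p = 0.0347) were called as well, and Sst was not (limma adjusted p = 0.0658). Cre control was on slide 1 only, so this fit gave the same differences as slide 1 alone, such as -2.79 for Gcg. Its differences rest on BRAFV600E replicates 1 and 2, which both had Pdx1 signal, and slide 2 added only to the estimate of error.

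**Figure D2:**
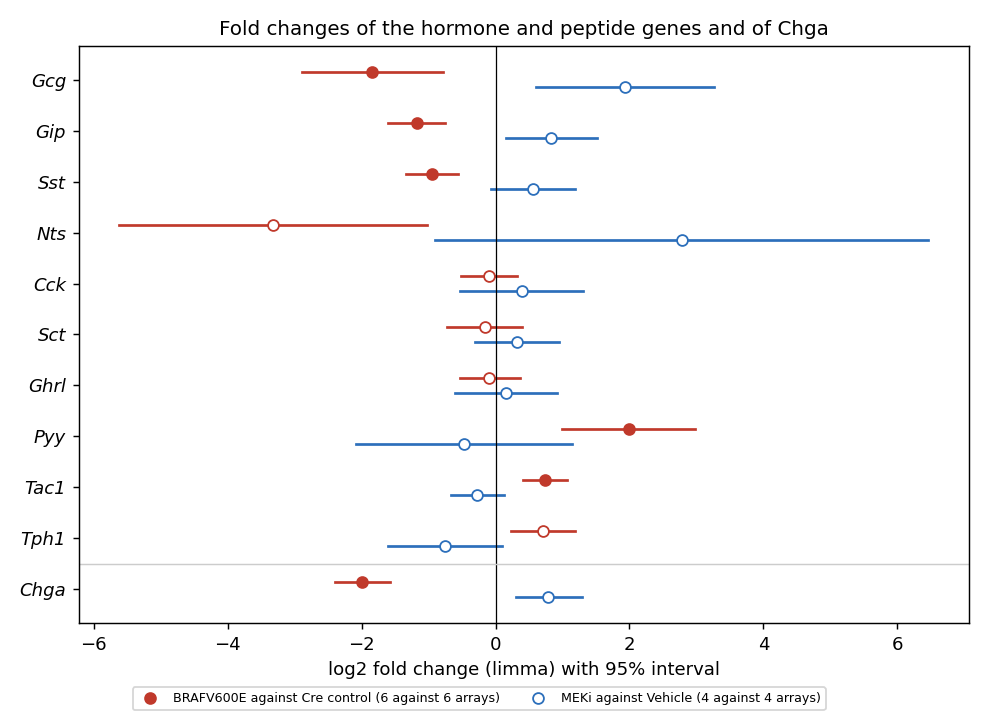
Fitted log2 fold changes with their 95% intervals for the 10 genes and for Chga, with BRAFV600E against Cre control in red and MEKi against Vehicle in blue. Filled points passed a limma adjusted p of 0.05 over all genes tested and open points did not. Gcg, Gip, Sst and Chga lie left of 0 and Pyy and Tac1 right of it in red, each filled, and every blue point is open and lies on the other side of 0 from the red point of its gene.

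Chga encodes chromogranin A, the granule protein used to stain enteroendocrine cells, and it fell further against its error than any of the 10 genes. Its lowest, median and highest levels were 3.12, 3.66 and 3.83 in Cre control and 0.94, 1.65 and 1.93 in BRAFV600E. Chga was 3.96-fold lower (log2 difference -1.99, SE 0.19, limma adjusted p = 6.7e-05). Chga was called under all 28 settings tried, as was Resp18 (log2 difference -2.06, SE 0.19, limma adjusted p = 5.4e-05), which encodes a protein of endocrine secretory cells.

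Other genes of the endocrine machinery were counted from lists of known function, where those that fell or rose are genes called lower or higher. Of 13 granule and prohormone-processing genes tested, 5 fell and 1 rose, with a median log2 difference of -0.25. Besides Chga and Resp18, the genes that fell included Scg3, a granin that sorts cargo into granules (-0.66, limma adjusted p = 0.00465), and Cpe, the carboxypeptidase that trims prohormones (-0.85, limma adjusted p = 0.00685). The gene that rose was Vgf, a granin-like neuropeptide precursor (0.92, limma adjusted p = 0.00957). Chgb, which encodes chromogranin B, differed by -0.11 (limma adjusted p = 0.72).

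Of 22 transcription factors of the enteroendocrine lineage tested, 9 fell and 0 rose, 20 had a fitted difference below 0, and the median was -0.60 beside -0.02 over all genes. Their mean level was -3.27 to -2.87 on the BRAFV600E arrays and -2.68 to -2.38 on the Cre control arrays. The 4 with the smallest p were Myt1 (-1.54, limma adjusted p = 0.000648) and St18 (-0.98, limma adjusted p = 0.00306), related zinc-finger factors, and the homeobox factors Pax4 (-1.22, limma adjusted p = 0.00388) and Lmx1a (-1.30, limma adjusted p = 0.00412). Neurog3, the factor that starts the lineage, differed by -0.06 (limma adjusted p = 0.837), and Neurod1, which acts after it, by -0.94 (limma adjusted p = 0.0614). Without scaling between arrays, 0 of the 22 factors were called lower and 3 higher, and 2 of the 13 granule genes were called lower and 3 higher. Relative to the median of all genes under that setting, 20 of 22 factors and 10 of 13 granule genes lay below, as with scaling. With slide as a block, the differences again rest on BRAFV600E replicates 1 and 2. In that fit 2 factors were called lower and 1 higher and 2 granule genes were called lower. Pax4 (limma adjusted p = 0.0745), Lmx1a (0.0754), Scg3 (0.0547), Cpe (0.0961) and Vgf (0.063) were not called.

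Of 11 nutrient and irritant sensors tested, 3 fell and 0 rose, with a median of -0.60. They were Trpa1, the irritant channel of enterochromaffin cells (-1.29, limma adjusted p = 0.000623), Kcnj11, a subunit of the ATP-sensitive potassium channel (-1.06, limma adjusted p = 0.00785), and Ffar2, a receptor of short-chain fatty acids (-0.71, limma adjusted p = 0.0249). Kcnj11 was well above background on 6 of 6 Cre control arrays but 1 of 6 BRAFV600E arrays, so it passed the filter through the group where it is high and its difference is against levels near background. Of 13 receptors and peptide-cleaving enzymes tested, 4 fell and 0 rose, with a median of -0.57. These were Sctr, the secretin receptor (-0.95, limma adjusted p = 0.00116), Sstr1, a somatostatin receptor (-1.58, limma adjusted p = 0.00135), Glp2r, the GLP-2 receptor (-0.55, limma adjusted p = 0.0328), and Mme, the peptidase neprilysin (-0.57, limma adjusted p = 0.045). The calls of Glp2r and Mme were lost in most of the fits that left out 1 array, with 5 of 12 and 2 of 12 keeping them.

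Among 9 genes of serotonin and biogenic amine handling, 1 fell, Maoa, which breaks serotonin down (-1.51, limma adjusted p = 0.042), and the median was -0.38. That call held in 3 of 12 fits that left out 1 array, and without BRAFV600E replicates 1, 2 and 5 the difference was -0.87 (limma adjusted p = 0.174). None of 10 other gut peptide genes tested was called by limma at an adjusted p under 0.05, and their median was -0.26. Without BRAFV600E replicates 1, 2 and 5, 7 transcription factors, 5 granule genes, 2 sensors and 2 receptors or enzymes were called lower, and Vgf was not called. Within slide 1 those counts were 1, 3, 1 and 2.

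**Figure D3:**
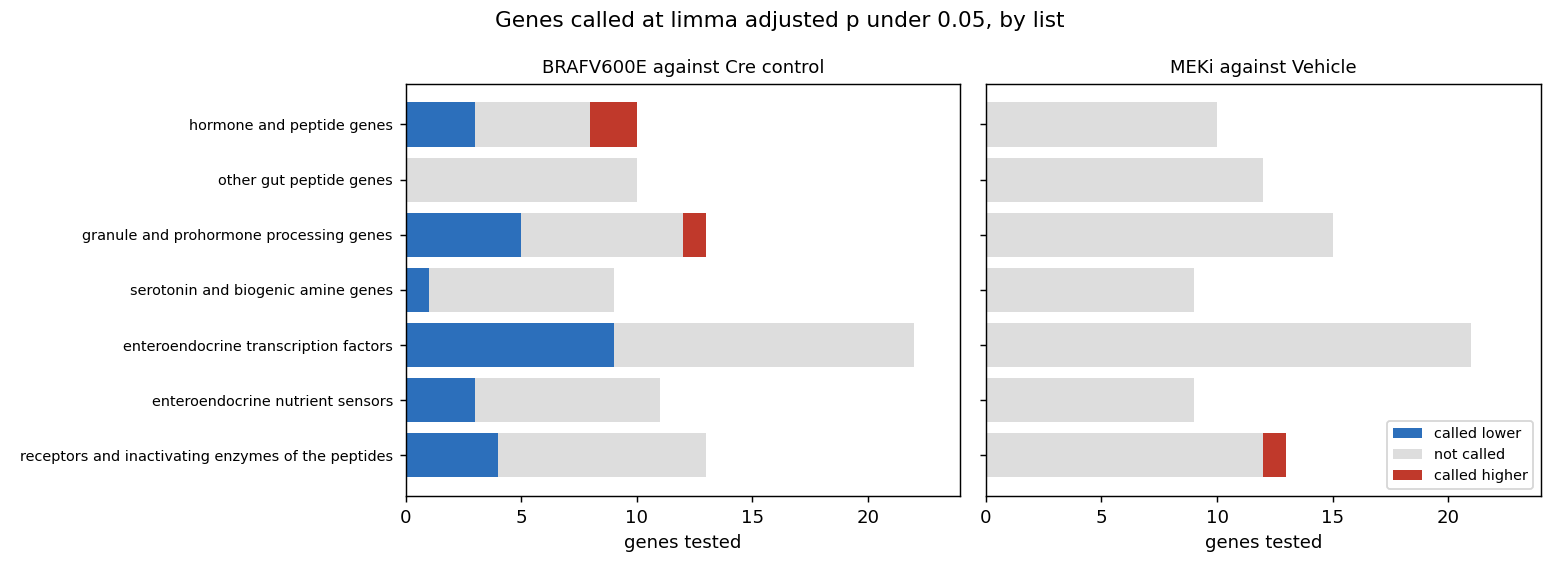
Genes called at a limma adjusted p under 0.05 among the hormone and peptide genes and 6 lists of related function, for BRAFV600E against Cre control on the left and MEKi against Vehicle on the right. The bar of a list is as long as the number of its genes tested, with genes called lower in blue, called higher in red and not called in grey. On the left 9 of 22 transcription factors and 5 of 13 granule genes are blue, and on the right 1 receptor gene is red.

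Markers of other cells moved beside these genes, and their part in the result was not tested. Of 6 Paneth cell markers, a secretory type of the crypt base, 4 were called lower in BRAFV600E, with a median log2 difference of -2.05 and mean levels of 2.99 to 4.88 against 5.54 to 6.68 in Cre control. Of 7 goblet cell markers 3 were called lower and 1 higher, with a median of -0.78. Of 7 smooth muscle markers 2 were called higher and 0 lower. Of 10 enteric neuron markers, 3 were called lower in BRAFV600E (Uchl1, Prph and Stmn2) and 10 had a fitted difference below 0, with mean levels of -1.47 to -1.0 on the BRAFV600E arrays and -0.67 to -0.41 on the Cre control arrays. Tac1, which neurons also express, was higher on the BRAFV600E arrays, and which cells gave its signal was not tested. Of 5 enteric glia markers 2 were called lower. Of 6 mast cell markers tested, which bear on Tph1 because mast cells also make serotonin, none was called, their mean levels were -2.22 to -1.82 against -1.84 to -1.29, and Ms4a2 was not well above background on any array. Among 8 epithelial markers 2 were called higher and 0 lower. Of 8 distal small intestine markers 1 was called lower, with mean levels of -1.13 to 1.85 in BRAFV600E and 1.53 to 2.44 in Cre control. Of 8 proximal ones 1 was called lower and 2 higher, with a median of 0.17. Their mean levels were 3.91 to 4.25 in BRAFV600E and 4.23 to 4.56 in Cre control.

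Array by array, the arrays with Pdx1 signal stood apart from all others for some hormones more than for others. Nts was lowest of all 20 arrays on the 4 arrays with Pdx1 signal (-3.32, -6.18 and -2.86 on BRAFV600E replicates 1, 2 and 5 and -5.72 on Vehicle replicate 2), against -1.62 to 3.31 on the other 16. Tph1 was highest on the same 4 arrays (0.19, 0.88, 0.35 and 1.34), against -1.11 to 0.18 on the others. For Gcg, 3 of the 4 arrays lay below all others. For Pyy 2 of the 4 lay above all others, and for Tac1 1 of the 4 did. Gip, Sst, Cck, Sct and Ghrl had no value outside the range of the other 16 arrays on any of the 4, but that range pools the groups. Within Vehicle, replicate 2 was the highest array for each of these genes, such as Sst at 4.14 against 2.99 to 3.16.

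**Figure D4:**
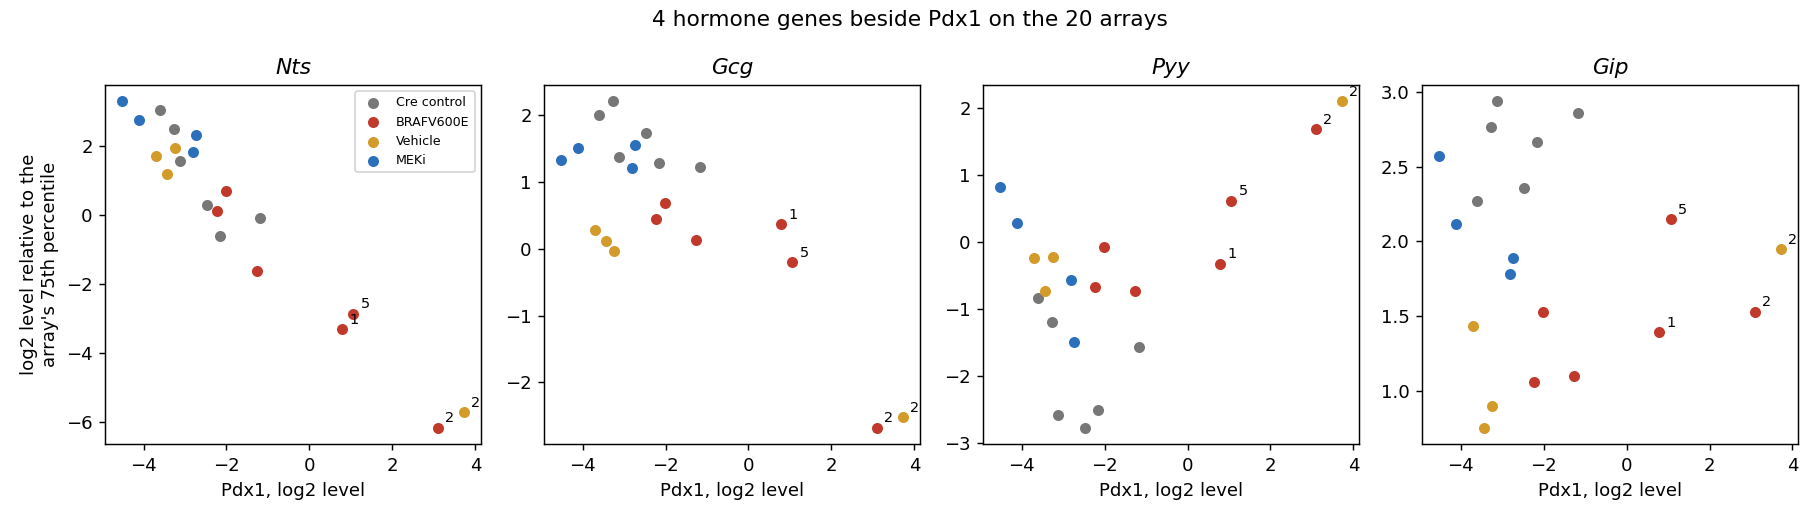
Levels of Nts, Gcg, Pyy and Gip plotted against the level of Pdx1 on the 20 arrays, both as log2 relative to the 75th percentile of the array, with 1 point per array coloured by group. The digits mark BRAFV600E replicates 1, 2 and 5 and Vehicle replicate 2, where Pdx1 was between 0.78 and 3.72. Nts is lowest on those 4 arrays, whereas Gip on them lies within the range of the other arrays.

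MEKi against Vehicle asked which expression depends on MEK activity. None of the 10 genes was called by limma at an adjusted p under 0.05, where 1.98% of 19227 genes tested were called, with 0.884% called lower and 1.09% higher. Of the 10 genes, 2 (Gcg and Gip) had an unadjusted p under 0.05, beside 16.4% of all genes. Fitted log2 differences ran from -0.76 (Tph1) to 2.78 (Nts), with a median of 0.35 beside 0.04 over all genes. The smallest exact permutation p that 4 against 4 arrays can give is 0.0286. Vehicle replicate 2, the array with signal of pancreatic genes, lay outside the range of the other Vehicle arrays for all 10 genes.

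Gcg levels were 1.51, 1.33, 1.55 and 1.21 on MEKi arrays 1 to 4 and -0.03, -2.52, 0.29 and 0.12 on Vehicle arrays 1 to 4. Every MEKi array lay above every Vehicle array, as was so for 6.44% of all genes. The log2 difference was 1.94 (SE 0.58, 95% interval 0.60 to 3.27, limma adjusted p = 0.151). Without Vehicle replicate 2 the difference was 1.27 and was called (limma adjusted p = 0.0159).

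Gip levels were 2.12, 2.57, 1.89 and 1.78 with MEKi and 0.90, 1.95, 1.43 and 0.75 with Vehicle, where replicate 2 alone reached into the MEKi range. The log2 difference was 0.83 (SE 0.29, limma adjusted p = 0.204), and without Vehicle replicate 2 it was 1.06 (limma adjusted p = 0.0843). Sst levels were 4.0, 4.06, 3.58 and 3.91 with MEKi and 3.02, 4.14, 3.16 and 2.99 with Vehicle, where replicate 2 was again the highest. Its log2 difference was 0.56 (SE 0.27, limma adjusted p = 0.357), and without Vehicle replicate 2 it was 0.83 and was called (limma adjusted p = 0.049). These calls are of 4 against 3 arrays.

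Nts levels were 2.77, 3.31, 2.34 and 1.85 with MEKi and 1.96, -5.72, 1.72 and 1.19 with Vehicle, where replicate 2 was not well above background. The log2 difference of 2.78 (SE 1.60, limma adjusted p = 0.457) came to 0.94 without that array (limma adjusted p = 0.242). Tph1 levels were -0.93, -0.52, -0.62 and -0.47 with MEKi and -0.15, 1.34, -0.32 and -0.35 with Vehicle. Every MEKi array lay below every Vehicle array for Tph1, as for 5.76% of all genes, and the log2 difference was -0.76 (SE 0.37, limma adjusted p = 0.36). Without Vehicle replicate 2 it was -0.36 (limma adjusted p = 0.295).

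Pyy levels were 0.28, 0.82, -1.49 and -0.56 with MEKi and -0.22, 2.10, -0.24 and -0.73 with Vehicle, and the groups overlapped throughout. Its log2 difference was -0.47 (95% interval -2.08 to 1.14), an interval that leaves a change in either direction undetected at this number of arrays. Tac1 levels were 0.63, 0.44, 0.45 and 0.10 with MEKi and 0.57, 1.00, 0.71 and 0.43 with Vehicle, a difference of -0.27 (95% interval -0.67 to 0.12). Cck, Sct and Ghrl differed by 0.39 (95% interval -0.53 to 1.30), 0.32 (-0.31 to 0.95) and 0.16 (-0.61 to 0.92).

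Chga was at 3.04 ± 0.31 with MEKi and 2.25 ± 0.33 with Vehicle (SD, n = 4 each) and the groups did not overlap, with a log2 difference of 0.79 (SE 0.22, limma adjusted p = 0.121). Of the lists of related function, 1 gene was called, the somatostatin receptor gene Sstr1 (0.92, limma adjusted p = 0.0402), and 0 of 15 granule genes and 0 of 21 transcription factors were. Their medians were 0.50 for granule genes, 0.27 for transcription factors and 0.49 for receptors and enzymes. Paneth cell markers had a median of 0.91 with 6 of 6 above 0, goblet cell markers a median of 0.65 with 6 of 7 above 0, and enteric neuron markers a median of 0.45 with 10 of 10 above 0, and none of these was called by limma at an adjusted p under 0.05. Mean levels of the exocrine pancreas markers were -2.50 to -1.84 with MEKi and -2.63 to 7.68 with Vehicle.

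Set side by side, the 2 comparisons share no array. The fitted log2 differences in BRAFV600E against Cre control and in MEKi against Vehicle had opposite signs for 10 of the 10 genes, beside 70.2% of the 18575 genes tested in both. Without Vehicle replicate 2 the signs were opposite for 9 of 10, Pyy being the exception, beside 68.6% of all genes. For Gcg the group means in descending order were 1.63 in Cre control, 1.40 in MEKi, -0.21 in BRAFV600E and -0.54 in Vehicle. The order was the same for Gip, at 2.64, 2.09, 1.46 and 1.25. For Sst the last places were exchanged, at 4.11 in Cre control, 3.89 in MEKi, 3.33 in Vehicle and 3.16 in BRAFV600E. These last places depended on Vehicle replicate 2. Without it the Vehicle means were 0.13 for Gcg, 1.02 for Gip and 3.06 for Sst. Vehicle then lay above BRAFV600E for Gcg and below it for Gip and Sst. The genes called higher in BRAFV600E had other orders. Pyy was at -1.91 in Cre control, 0.08 in BRAFV600E, 0.23 in Vehicle and -0.24 in MEKi, so MEKi stayed above Cre control. Tac1 was at 0.65, 1.40, 0.68 and 0.41 in those groups, so Vehicle was near Cre control. Levels in different experiments were not tested against each other, since they lie on different slides. For Gcg, Gip and Sst the array ranges of Cre control and MEKi overlapped, as did those of BRAFV600E and Vehicle. Other ranges overlapped too. The MEKi range of Gip overlapped those of BRAFV600E and Vehicle. Through replicate 2, the Vehicle range of Sst overlapped those of MEKi and Cre control.

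The hormones did not vary as 1 block from array to array. After subtracting the group means, the 45 pairs among the 10 genes had a median Pearson r of 0.22 over the 12 arrays of the first experiment, from -0.62 to 0.93, and 30 were above 0. These values share the scaling of each array and are a description without a test. Subtracting group means also leaves in the 2 slides of BRAFV600E and outlying arrays. BRAFV600E replicate 2 is one, with Gcg at -2.68 and Nts at -6.18, and its weight in these r values was not tested. Cck was closest to Ghrl (r = 0.93) and Sst (r = 0.90), and Nts and Gcg were closest to each other among the 10 (r = 0.83). Among 18864 genes, those most like a hormone gene in this respect included Zfp280c (r = 0.96) and Hoxc4 (r = 0.95) for Gcg, Tln1 and Khdrbs1 (r = 0.95 each) for Nts, and Chgb (r = 0.95) and Mal (r = 0.91) for Tph1. For Pyy they were Ankrd35 (r = 0.86) and 4930415O20Rik (r = 0.85), for Gip Ppp1r14c (r = 0.91) and L3mbtl3 (r = 0.85), for Sct Ptpn23 (r = 0.93) and Abhd17c (r = 0.92), for Ghrl Cck (r = 0.93) and Gpd1 (r = 0.86), and for Sst Cck and Tex14 (r = 0.90 each).

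Probes of 1 gene did not always move together. On build mm9, the Gcg probe used lies at chr2:62312685-62312744, and a second Gcg probe at chr2:62318657-62318716 differed by -0.08 in BRAFV600E (limma adjusted p = 0.852) and by -0.07 in MEKi. With the mean of the probes of a gene in place of the brightest, Gcg was not called in BRAFV600E (limma adjusted p = 0.051). The Tac1 probe used lies at chr6:7512893-7512952 and the second one, which rose more, spans chr6:7507722-7509136. The Tph1 probe used lies at chr7:53902606-53902665 and the second at chr7:53917441-53917500. Gip, Sst, Nts and Pyy were each read by 1 probe, at chr11:95886745-95887966, chr16:23889681-23889740, chr10:101944967-101945026 and chr11:101968311-101968370, and the Gip probe matches in parts across a span of 1222 bases. Whether these probes lie in coding or untranslated sequence was not analysed here.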

How the data were processed

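Total RNA of each mouse was labelled with Cy3 and hybridised to a 1-colour Agilent array. The authors deposited the scanner output of Agilent Feature Extraction 10.5.1.1 (per the labels), with a background-subtracted intensity for each spot and marks for spots well above background or saturated, and a value table on the intensity scale without scaling between arrays. From these, spots of a probe were averaged, the 75th percentile of each array was subtracted on the log2 scale, and 1 probe stood for a gene (the highest mean over the 20 arrays). Genes were tested with lmFit and eBayes of limma 3.58.1 in R 4.3.3, separately for each experiment and with no covariate, where they were well above background on at least 6 of 12 or 4 of 8 arrays. P-values were adjusted by Benjamini-Hochberg over all genes tested, and exact two-sided permutation tests over arrays were run for single genes. The script was tested on simulated data. The 10 genes, the lists and their markers were chosen with earlier results of these data known. From each list, up to 4 called genes with the smallest adjusted p, and called genes against its direction, were named. Alternatives covered background correction, scaling, filters, probes, fits, slides and each array left out. The treatment text of the labels, which describes another drug and matches no group here, was not used. Of the probes, 12291 had no gene name in the sources used here. Probe coordinates are those of the files (mm9) and promoter coordinates those of RefSeq (GRCm38.p6), and the 2 builds were not mixed.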

Additional observations from a re-analysis of the deposited data

Results flagged for a closer look

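In groups of 4 to 10 arrays, a value was picked out where its gap to the nearest array was too large a part of the range of the group by Dixon's criterion. Chance picks out about 1 in 20 groups, and 78 groups were examined. Gcg was at -2.68 on BRAFV600E replicate 2, where the other 5 arrays were between -0.20 and 0.68. On Vehicle replicate 2, which had signal of pancreatic genes and of Pdx1, 4 hormone genes stood apart from the other Vehicle arrays. These were Gcg at -2.52 (others -0.03 to 0.29), Nts at -5.72 (others 1.19 to 1.96), Sst at 4.14 (others 2.99 to 3.16) and Tph1 at 1.34 (others -0.35 to -0.15). Pax4, a transcription factor of the endocrine lineage, was at -4.06 on Cre control replicate 5, where the other Cre control arrays were between -3.59 and -3.36. The cause of these values was not tested.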

How the results depend on the processing

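Over 28 settings for BRAFV600E against Cre control and 22 for MEKi against Vehicle, Gip was called lower in 27, Pyy and Tac1 higher in 26, Sst lower in 25 and Gcg lower in 24, and the direction of these 5 genes did not turn in any of them. Without scaling between arrays the median of all genes moved to 0.79, so differences there are read relative to it, and 1 of the 10 genes was called lower. Without scaling Cck (0.71), Ghrl (0.72), Sct (0.65), Ffar2 (0.10), Glp2r (0.26), Mme (0.24) and Scg3 (0.14) turned positive, as did Cck (0.03) and Ghrl (0.04) with median scaling and Ghrl (0.02) without Cre control replicate 2, where leaving out 1 array gave -0.18 to 0.02. Gcg was not called without scaling (limma adjusted p = 0.0881), within slide 1 (limma adjusted p = 0.0625) or without Cre control replicate 3 (limma adjusted p = 0.0619). The number of the 10 genes called higher was 0 within slide 1 and 0 without BRAFV600E replicates 1, 2 and 5, a setting chosen after seeing the data, as was applying the settings to the lists. In MEKi against Vehicle, Ghrl turned to -0.02 without MEKi replicate 4 and to -0.01 without Vehicle replicate 4 (range -0.02 to 0.44), Pyy turned to 0.16 without Vehicle replicate 2 (range -0.82 to 0.16), and leaving out 1 array gave between 0 and 2 genes called higher. Sstr1 was called in 5 of 21 settings. The count of all genes called in BRAFV600E against Cre control was 2372 and became 9336 without scaling, 4648 with normexp background correction, 1534 with slide as a block and 747 within slide 1. In MEKi against Vehicle 380 genes became 1135 with array weights, 72 without scaling, 59 with Y-linked signal as a covariate and 16 with array column as a block. Other causes were not tested. No paired analysis was possible because the labels give the groups no shared replicate numbers.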
